A study of Mus musculus with 11 samples.

Results

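The genes described here encode the proteins of the cytosolic ribosome. They were chosen by name alone: every row of the count table with a symbol of the form Rpl, Rps or Rplp, a number and at most a final a, l or x was taken, which gave 80 of 23224 genes. Of these, 46 belong to the large subunit, 31 to the small subunit and 3 to the P stalk of the large subunit. After the filter on low counts 77 members could be tested. Rpl3l, Rpl10l and Rpl39l, the tissue-restricted relatives of Rpl3, Rpl10 and Rpl39, did not pass it and averaged 0.0263, 0.0373 and 0.00476 CPM (counts scaled to a common library size).

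A eukaryotic ribosome joins a small subunit, which decodes the messenger RNA, to a large subunit, which forms the peptide bond and passes the new chain through an exit tunnel. Most ribosomal proteins are needed in equal numbers, and most of their messenger RNAs begin with a run of pyrimidines, the 5′ terminal oligopyrimidine (TOP) tract, through which the mTOR pathway and Larp1 control their translation. In the intestinal epithelium they are among the most abundant messenger RNAs, and Myc is known to raise both their transcription and that of ribosomal RNA.

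RNA was measured in 11 libraries of mouse colon cancer organoids, all of genotype AKP (spelled as labelled). The constitutive and the inducible SOX17OE lines (1 library each) are naive organoids given a SOX17 overexpression construct by lentivirus; whether doxycycline was added to the inducible line is not given in the sources used here. The RAG2KO and the C57Bl6 organoids (3 libraries each) were grown from primary tumours that formed when naive organoids were transplanted orthotopically into immunodeficient RAG2KO or immunocompetent C57Bl6 mice, and were passaged, per the series text, until cancer cells alone were left. Naive organoids (3 libraries) were never in a mouse. Each SOX17OE line is a single line without replicate, and nothing states that the replicates of a group came from separate cultures or animals, so that p-values measure only the spread between these samples.

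Library totals were 14109100 to 22154400 counts. Sox17 was at 72.7 CPM in the constitutive and 4.78 CPM in the inducible line, at 20.6 ± 4.70 CPM in RAG2KO and 35.0 ± 34.2 CPM in C57Bl6 organoids, and at 0.102 ± 0.0974 CPM in naive organoids (SD, n = 3 for each replicated group). The 12 epithelial markers summed to between 7189 and 12834 CPM in each library. Lymphocyte markers summed to at most 0.570 CPM, with Nkg7 at 0 in all libraries. Myeloid markers summed to between 3.93 CPM in naive replicate 1 and 16.1 CPM in RAG2KO replicate 3, with 14.9 CPM in the constitutive line. Of these markers only the macrophage genes C1qa, C1qb and Tyrobp were at 0 in all libraries. Fibroblast markers summed to 65.9 CPM in the constitutive and 20.8 CPM in the inducible line. They summed to 9.03 to 151 CPM in RAG2KO (the highest being replicate 2) and 8.53 to 18.9 CPM in C57Bl6 organoids. In naive organoids the sums ran from 6.53 CPM upward and all stayed below the highest C57Bl6 library. Col1a1, Col1a2, Lum, Pdgfrb and Thy1 stayed under 1 CPM in each library. The rest of the list, which held most of the 151 CPM, was Col3a1, Dcn, Pdgfra, Acta2 and Vim.

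The members made up a large part of every library. With Rn45s left out of the total, they held 14.3% of the counts in the constitutive and 15.7% in the inducible SOX17OE line. The share was 13.7%, 11.8% and 13.8% in RAG2KO replicates 1 to 3, 9.81%, 12.3% and 10.2% in C57Bl6 replicates and 13.2%, 12.3% and 10.9% in naive replicates. Both SOX17OE lines therefore lay above all 9 other libraries, whereas the other groups overlapped. Large-subunit members accounted for 5.38% to 8.82% of the counts, small-subunit members for 3.91% to 6.18% and the P stalk for 0.517% to 0.844%. In bulk samples a change in the kinds of cells present and a change in the RNA per cell cannot be told apart.

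**Figure D1:**
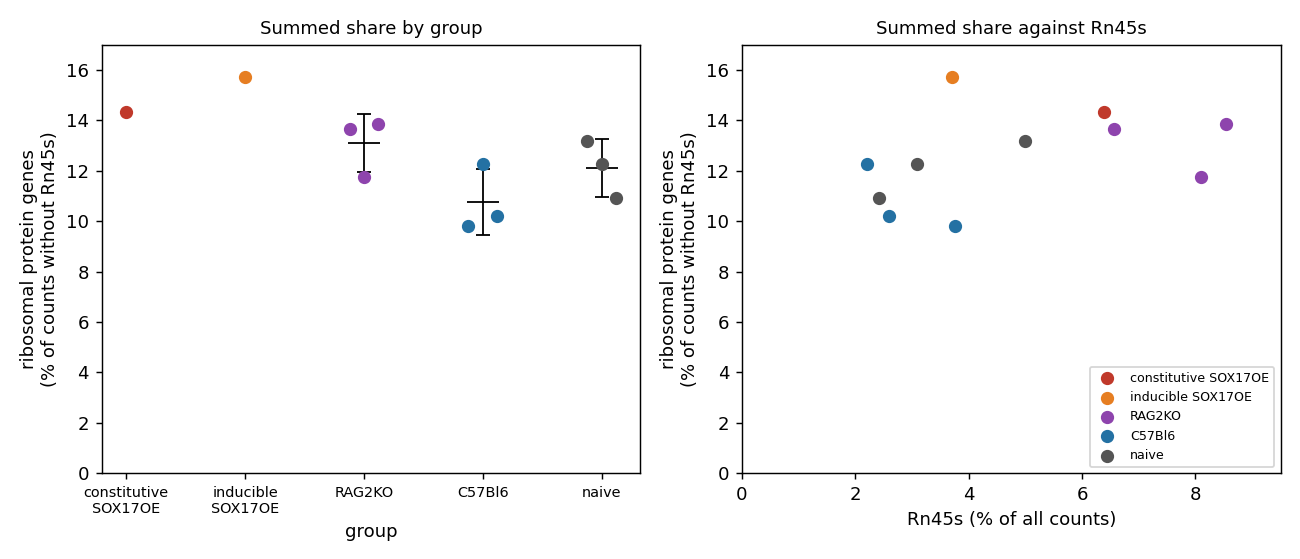
Summed share of the 80 ribosomal protein genes in each library, as a percent of counts without Rn45s, by group (left; bars are the mean ± SD of 3 libraries, and the SOX17OE lines have 1 library each) and against the Rn45s share in percent of all counts (right). The 2 SOX17OE lines sit highest, at 14.3% and 15.7%, and the RAG2KO libraries sit farthest right, at 6.56% to 8.54% Rn45s.

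No difference in summed share between the replicated groups passed the exact test. RAG2KO organoids averaged 13.1 ± 1.16% and naive organoids 12.1 ± 1.14% (SD, n = 3 each; difference 0.984 percentage points, two-sided exact permutation p = 0.3). C57Bl6 organoids averaged 10.8 ± 1.32%, which was 1.34 points below naive (difference -1.34, exact permutation p = 0.3). The RAG2KO share exceeded that of C57Bl6 by 2.33 points (exact permutation p = 0.2). With 3 libraries against 3 no such test can go below 0.1. With Rn45s kept in the total the RAG2KO minus naive difference was 0.407 points, and it was -0.113 points without naive replicate 3.

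Rn45s, the precursor of 18S, 5.8S and 28S ribosomal RNA, is made by RNA polymerase I without a poly(A) tail, and its counts in a poly(A)-selected library are what escaped selection. It held 6.39% of all counts in the constitutive and 3.71% in the inducible line. It held 6.56%, 8.10% and 8.54% in RAG2KO replicates, 3.77%, 2.21% and 2.59% in C57Bl6 replicates and 4.99%, 3.09% and 2.42% in naive replicates. All 3 RAG2KO libraries lay above all C57Bl6 and naive libraries. In the test across all genes (edgeR quasi-likelihood, Benjamini-Hochberg) Rn45s was higher in RAG2KO than in naive organoids (log2 fold change 1.22 ± 0.29, SE; adjusted p = 0.0137) and than in C57Bl6 organoids (1.53 ± 0.30, adjusted p = 0.00765).

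Across the 11 libraries no relation of the share of the ribosomal protein genes to the Rn45s share passed the permutation test. Pearson's r was 0.403 (permutation p = 0.221, adjusted 0.331 over 3 relations) and Spearman's rho 0.391 (permutation p = 0.239). Without RAG2KO replicates 2 and 3, the libraries farthest from the median Rn45s share, r was 0.544 (permutation p = 0.133). With Rn45s kept in the total r was 0.249 (permutation p = 0.460). Within groups the direction was not shared: over 3 libraries each, r was -0.235 in RAG2KO, -0.795 in C57Bl6 and 0.926 in naive organoids, and over the deviations of all 9 replicated libraries from their group means it was 0.0696. Single members spread from -0.769 for Rps2, a small-subunit protein at the messenger RNA entry, to 0.723 for Rps16, a small-subunit protein near the decoding site, with 69 of 77 above 0. These correlations are a description, because members and Rn45s share each library's depth and makeup. The permutations exchanged libraries across groups, although the RAG2KO libraries hold the highest Rn45s shares, so that their p-values are a description as well.

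Per kilobase of coding sequence, the tested members had a median mean level of 3013 CPM per kb, with quartiles at 2426 and 3803. Rpl41, which encodes the smallest ribosomal protein, stood at 35485 CPM per kb; its coding sequence is only 75 bases, so that its untranslated sequence weighs heavily. Rplp1, an acidic P-stalk protein, followed at 6043 and Rps12, a small-subunit protein, at 5995 CPM per kb. At the low end were Rps27 at 32.0, Rpl34 at 153 and Rpl30 at 295 CPM per kb. The row for Rpl34-ps1, a processed copy of Rpl34, held 699 to 1709 CPM in the same libraries, against a mean of 53.5 CPM for Rpl34. RSEM, which the authors used, divides reads among near-identical copies, so the Rpl34 value is uncertain. No such copy was examined for Rps27 and Rpl30, whose values are also treated as uncertain because they lie so far below the other members; the cause was not tested. Rps27l, the p53-responsive relative of Rps27, stood at 783 CPM per kb.

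Members moved together from library to library. The median correlation of a member's log2 CPM with the mean of the others over the 11 libraries was 0.933, and 65 of 77 members were above 0.8, compared with 3.88% of the other 13643 genes. The libraries within a group differed in the same joint way. Among naive organoids replicate 1 was highest for 73 of 77 members and replicate 3 lowest for 75. Among C57Bl6 organoids replicate 2 was highest for 71, and among RAG2KO organoids replicate 2 was lowest for 74. The members least tied to the rest were Rplp2 (r = -0.04) and Rplp0 (r = 0.28) of the P stalk, Rps2 (r = 0.01), and the large-subunit proteins Rpl26 (r = 0.35) and Rpl8 (r = 0.37).

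**Figure D2:**
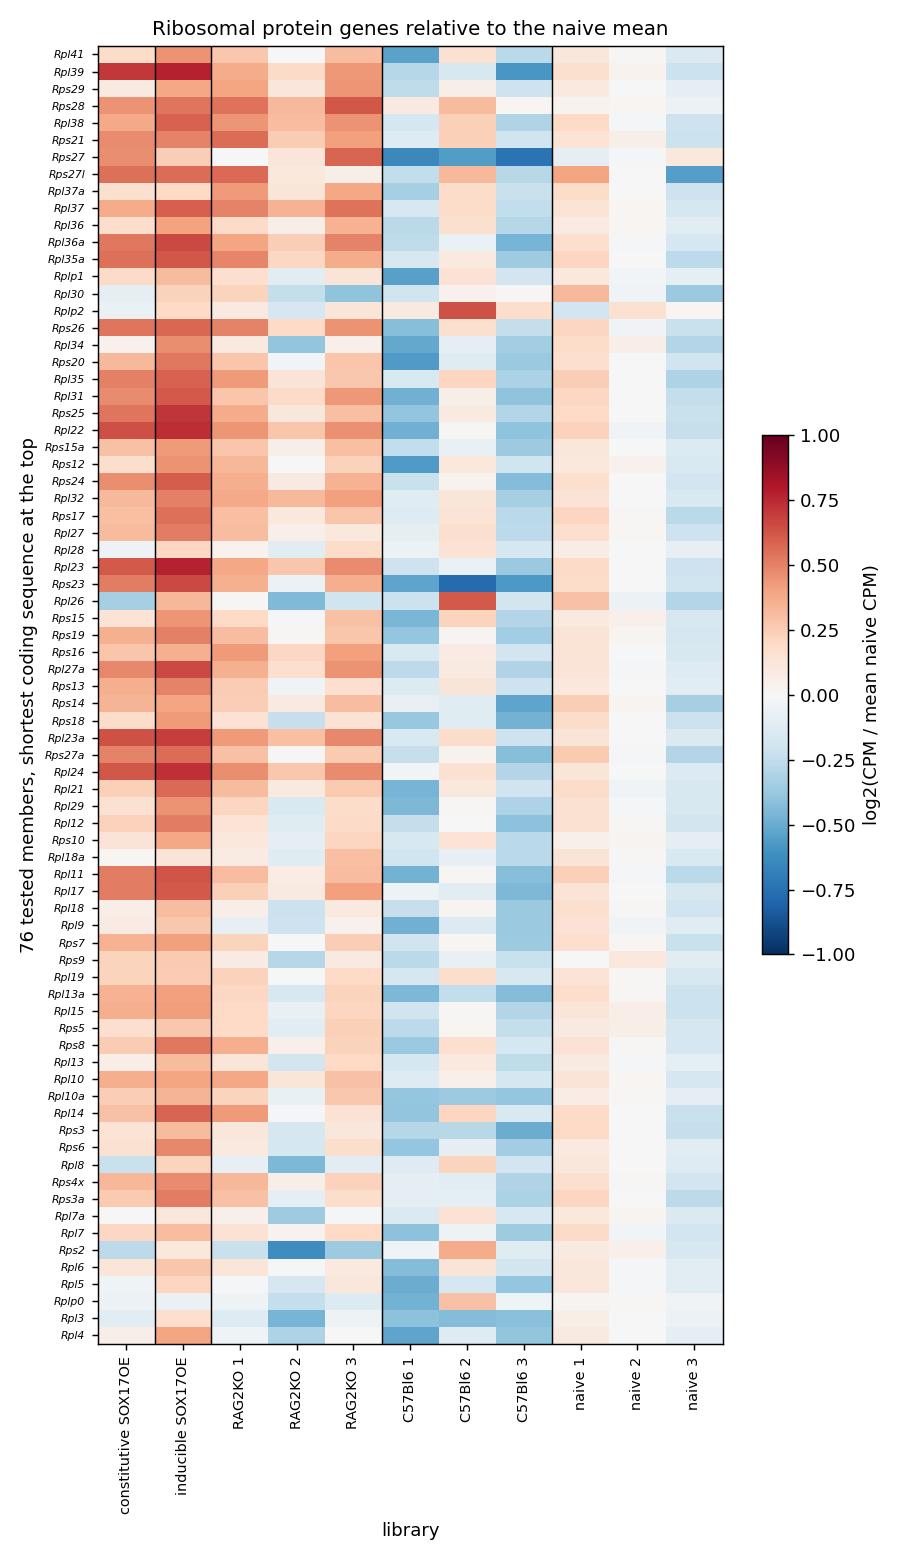
Level of 76 of the 77 tested members in each of the 11 libraries, as log2 of CPM over the mean CPM of the 3 naive libraries (colour), with members ordered from the shortest coding sequence at the top to the longest at the bottom. Whole columns shade together: the inducible line is the highest of all libraries for 63 of the 77 members, and naive replicate 3 and C57Bl6 replicates 1 and 3 are pale to dark blue through most rows.

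In the SOX17OE lines 11 of 77 ribosomal protein genes rose against naive organoids and the other 66 did not pass the test. Of the 77 members 73 had a mean log2 fold change of the 2 lines above 0, with a median of 0.37 against -0.01 for all 13720 genes tested. By the edgeR quasi-likelihood test with Benjamini-Hochberg adjustment over all genes, 11 rose and 0 fell at an adjusted p under 0.05, where 6.77% of all genes were called higher and 5.92% lower. They were 8 large-subunit members (Rpl39, Rpl23, Rpl23a, Rpl24, Rpl22, Rpl36a, Rpl27a and Rpl17) and 3 small-subunit members (Rps28, Rps25 and Rps23). In 56 members both lines lay above all 3 naive libraries and in 1 below, against 25.3% and 23% of all genes.

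Rpl39, a small protein that lines the peptide exit tunnel, had the largest change of the lines. It was at 1216 CPM in the constitutive and 1268 CPM in the inducible line, against 830, 762 and 641 CPM in naive replicates 1 to 3. Both lines lay above every naive library, and the log2 fold change was 0.74 ± 0.16 (SE, edgeR adjusted p = 0.0205). Rpl23, a large-subunit protein that can also bind and restrain Mdm2, was at 2597 and 2898 CPM in the constitutive and inducible line, against 1936, 1690 and 1469 CPM in naive replicates. The groups did not overlap, and the change was 0.69 ± 0.15 (edgeR adjusted p = 0.0199). Rpl23a, which sits at the mouth of the exit tunnel where nascent chains meet the signal recognition particle, was at 3282 and 3422 CPM in the lines, against 2319, 2117 and 1909 CPM in naive replicates, again without overlap (0.66 ± 0.15, edgeR adjusted p = 0.0230). Rpl22, a large-subunit protein dispensable for general translation, changed by 0.69 ± 0.18 (edgeR adjusted p = 0.0349).

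Of the 31 small-subunit members 3 rose. Rps28 was at 739 and 783 CPM in the constitutive and inducible line, against 554, 550 and 521 CPM in naive replicates, with no overlap (0.49 ± 0.14, edgeR adjusted p = 0.0444). Rps25, known for its part in initiation from viral internal entry sites, changed by 0.63 ± 0.18 (edgeR adjusted p = 0.0463), and Rps23, a protein of the decoding centre, by 0.59 ± 0.17 (edgeR adjusted p = 0.0476). The P stalk, which recruits the translational GTPases to the large subunit, held no called member. Rplp0, its base, was at 3660 and 3641 CPM in the lines, against 3873, 3826 and 3712 CPM in naive replicates, so that both lines were below all naive libraries (-0.06 ± 0.19). Rplp1 and Rplp2 had log2 fold changes of 0.25 ± 0.19 and 0.07 ± 0.19. Rps2 and Rplp0 were the lowest members, Rps2 at -0.07 ± 0.18, and the log2 fold changes of Rpl26 and Rpl8 rounded to 0. Of the 12 epithelial markers 1 was called higher and 7 lower in the lines than in naive organoids (median -0.84), against 6.77% and 5.92% of all genes. Of the 6 endothelial markers (Pecam1, Kdr, Emcn, Cdh5, Vwf and Egfl7) 3 could be tested. Of these 1 was called higher and 0 lower in the lines (median 1.68, range 0.21 to 7.83), against the same shares of all genes. These markers summed to 17.6 CPM in the constitutive and 12.7 CPM in the inducible line, 7.82 to 11.9 CPM in RAG2KO, 5.76 to 6.97 CPM in C57Bl6 and 7.79 to 9.29 CPM in naive organoids, with Pecam1, Kdr and Emcn under 1 CPM in each library. The part of these markers in the members' values was not tested.

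The inducible line was the higher of the lines in 75 of 77 members. Taken alone against naive organoids, the constitutive line had 1 member called, Rpl39 (log2 fold change 0.71 ± 0.20, edgeR adjusted p = 0.0470, with 7.23% of all genes called higher and 5.04% lower), a median of 0.26 and 67 of 77 members above 0. It lay above all naive libraries for 56 members and below for 5, against 38.8% and 36.3% of all genes. The inducible line had 76 of 77 above 0 and a median of 0.45, but 0 members called by edgeR, where 0.525% of all genes were called higher and 0.131% lower. It lay above all naive libraries for 74 members and below for 1, against 37.1% and 34.1% of all genes. At an unadjusted p under 0.05, 36 members were higher and 0 lower in it, against 1389 higher and 1123 lower of all 13720 genes. DESeq2 called 10 members and 800 genes in all, and limma voom 8 members and 727 genes. The difference between the lines has no replicate check and was not tested. The Rn45s share, at 6.39% in the constitutive and 3.71% in the inducible line, ran the other way between them.

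The count for the lines rested on naive libraries. Without naive replicate 2 or naive replicate 3, 0 members were called, without RAG2KO replicate 1 or 3 there were 6, and without C57Bl6 replicate 3 there were 7, the last 3 libraries entering only through the shared spread. The median stayed between 0.28 and 0.45 whichever of the replicated libraries was left out. Rpl39 in the constitutive line was no longer called without any one of the naive libraries, C57Bl6 replicate 1 or RAG2KO replicate 1 or 3, which left 0 members, and 3 were called without C57Bl6 replicate 2.

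**Figure D3:**
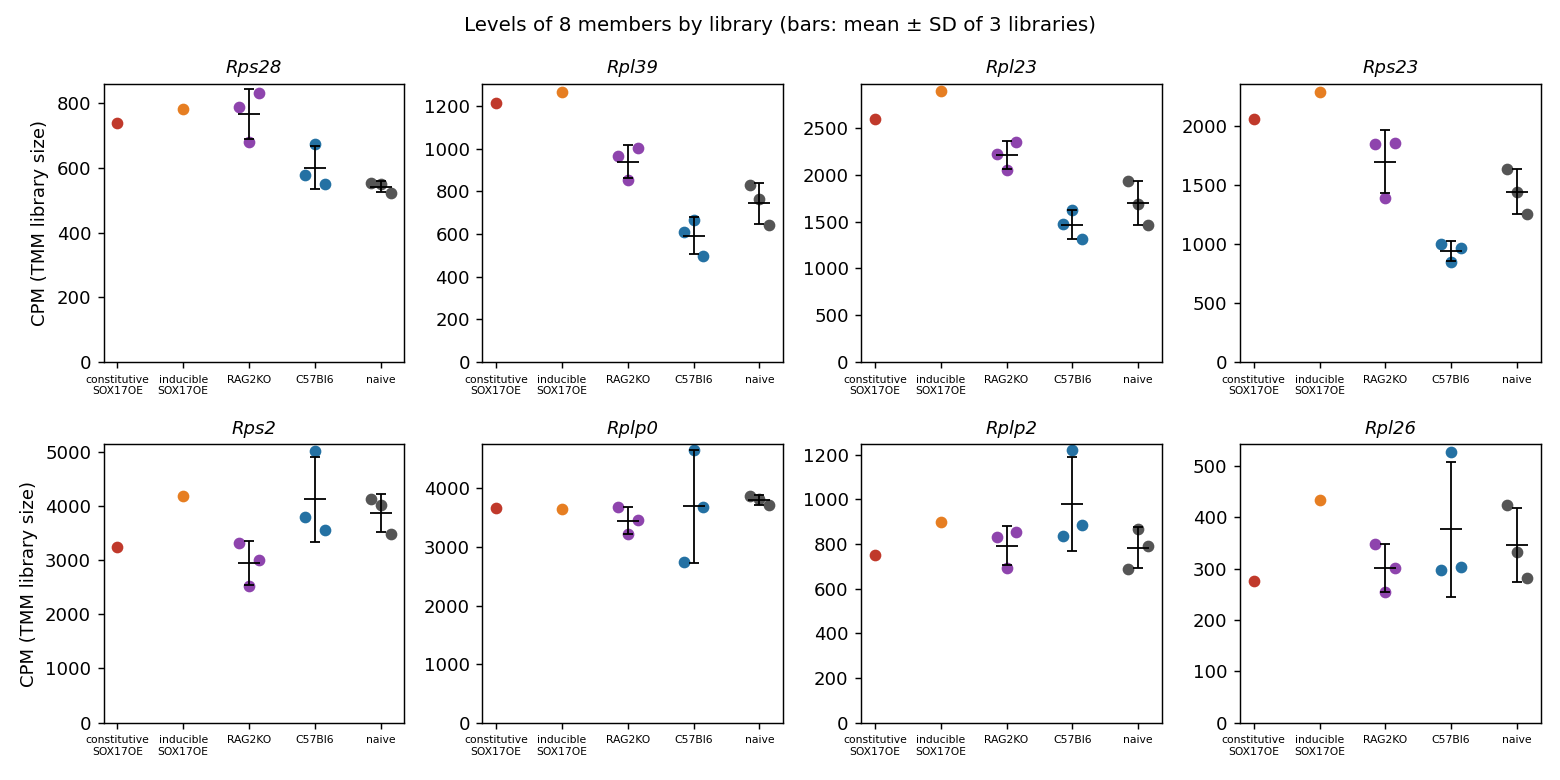
Level in CPM, with TMM-scaled library sizes, of 8 members in the constitutive SOX17OE, inducible SOX17OE, RAG2KO, C57Bl6 and naive organoids (points are libraries, bars the mean ± SD of 3 libraries). Rpl39, Rpl23 and Rps28 are higher in the SOX17OE and RAG2KO libraries than in naive ones and Rps23 is lowest in C57Bl6, while Rps2, Rplp0, Rplp2 and Rpl26 are not, with C57Bl6 replicate 2 the highest library for all of the last 4.

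In RAG2KO tumour-derived organoids compared with naive organoids, 3 of the 77 members rose and 0 fell by edgeR, where 16% of all genes were called higher and 13.3% lower. The median log2 fold change was 0.19 against 0.02 for all genes, and 63 members were above 0. All 3 libraries lay above all naive libraries for 14 members and below for 2, against 24.8% and 22.4% of all genes. This comparison and those of the SOX17OE lines and C57Bl6 organoids share the naive libraries.

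Rps28, a small-subunit protein close to the messenger RNA exit, was at 788, 680 and 832 CPM in RAG2KO replicates 1 to 3, against 554, 550 and 521 CPM in naive replicates. Every RAG2KO library was above every naive one, and the log2 fold change was 0.50 ± 0.12 (SE, edgeR adjusted p = 0.0155). Rpl37, a zinc-binding protein of the large subunit, was at 1286, 1162 and 1334 CPM in RAG2KO replicates, against 1005, 925 and 810 CPM in naive replicates, without overlap (0.46 ± 0.14, edgeR adjusted p = 0.0354). Rpl23a was at 2841, 2612 and 2954 CPM in RAG2KO replicates, against 2319, 2117 and 1909 CPM in naive replicates, also without overlap (0.41 ± 0.14, edgeR adjusted p = 0.0498). At the other end Rps2 was at 3316, 2512 and 3008 CPM in RAG2KO replicates, against 4127, 4019 and 3472 CPM in naive replicates. Its RAG2KO libraries were all below the naive ones, and its log2 fold change of -0.39 ± 0.16 did not pass the test (edgeR adjusted p = 0.0930). Rpl8 and Rpl3, both next to the peptidyl transferase centre, were at -0.20 ± 0.15 and -0.20 ± 0.13. Without naive replicate 2 there were 0 calls, without naive replicate 3 or any one RAG2KO library 1, and without C57Bl6 replicate 2 there were 7. Of 5 fibroblast markers tested 2 were called higher in RAG2KO than in naive organoids and 0 lower, with log2 fold changes of 1.67 to 4.97 over the 5. Of 4 myeloid markers tested 1 was called higher and 0 lower, against 16% and 13.3% of all genes. The part of these markers in the members' values was not tested.

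In C57Bl6 tumour-derived organoids, compared with naive organoids, 72 of 77 had a log2 fold change below 0, with a median of -0.16 against 0.02 for all genes. By edgeR 0 rose and 1 fell, where 15.3% of all genes were called, 9.5% higher and 5.84% lower. The C57Bl6 libraries were above all naive libraries for 0 members and below for 9, against 19.9% and 16.9% of all genes. C57Bl6 replicate 2 stood apart, as the highest of its group for 71 members.

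The called member was Rps23, at 1003, 845 and 968 CPM in C57Bl6 replicates 1 to 3, against 1636, 1439 and 1257 CPM in naive replicates. The groups did not overlap and the log2 fold change was -0.62 ± 0.15 (SE, edgeR adjusted p = 0.0230). C57Bl6 replicate 2, high for most members, was the lowest library for Rps23. Rps23 is the only member on chromosome 13, and in that library the median of 508 tested genes of chromosome 13 was -0.73 on the log2 scale relative to the naive mean, against -0.11 and -0.16 in C57Bl6 replicates 1 and 3. Other chromosomes, which hold other members, were shifted less in C57Bl6 replicate 1, from -0.23 for chromosome 5 to 0.24 for chromosome 18. Such shifts were not confined to C57Bl6 libraries: in RAG2KO replicate 2 the medians of chromosomes 6 and X were 0.32 and 0.18. Rpl32 lies on chromosome 6, and Rpl10, Rpl36a, Rpl39 and Rps4x lie on X. The part of these shifts in the members' values was not tested. For Rps23, C57Bl6 versus naive, without C57Bl6 replicate 2 the log2 fold change was -0.55 ± 0.17 and no longer called (edgeR adjusted p = 0.0688), and the call was also lost without C57Bl6 replicate 3 or without naive replicate 1 or 2. Rps27 had the lowest value, -0.64 ± 0.21 (edgeR adjusted p = 0.0621), at a level of 4.80 to 5.44 CPM in C57Bl6 and 7.50 to 8.63 CPM in naive replicates, with the doubt on its row given above. Rpl3 was at 2179, 2147 and 2171 CPM in C57Bl6 replicates, against 3018, 2891 and 2775 CPM in naive replicates. These groups did not overlap either, and Rpl3 just missed the threshold (-0.42 ± 0.13, edgeR adjusted p = 0.0504). Rplp2 was the highest member, at 0.32 ± 0.17 (edgeR adjusted p = 0.226).

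Between the tumour-derived groups, of the 77 members 18 were higher in RAG2KO than in C57Bl6 organoids by edgeR and 0 were lower, where 11.8% of all genes were called higher and 12.2% lower. The median was 0.35 against 0.00 for all genes, 69 members were above 0, and all 3 RAG2KO libraries lay above all C57Bl6 libraries for 34 members and below for 1, against 19.4% and 20.4% of all genes. The called members were 12 of the large subunit (Rpl39, Rpl36a, Rpl10a, Rpl23, Rpl22, Rpl37, Rpl32, Rpl27a, Rpl23a, Rpl31, Rpl24 and Rpl13a) and 6 of the small subunit (Rps23, Rps27, Rps15a, Rps20, Rps29 and Rps16), with log2 fold changes between 0.43 and 0.90.

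Rps23 was at 1847, 1390 and 1857 CPM in RAG2KO replicates, against 1003, 845 and 968 CPM in C57Bl6 replicates. The groups were well apart, with a log2 fold change of 0.85 ± 0.15 (edgeR adjusted p = 0.00566). The low chromosome 13 median of C57Bl6 replicate 2 holds here too, and its part in this value was not tested. Rpl39 was at 965, 852 and 1005 CPM in RAG2KO replicates, against 610, 668 and 498 CPM in C57Bl6 replicates, without overlap (0.67 ± 0.15, edgeR adjusted p = 0.0124). Rpl36a, a large-subunit protein near the tRNA exit site, was at 993, 895 and 1064 CPM in RAG2KO replicates, against 635, 721 and 549 CPM in C57Bl6 replicates, without overlap (0.63 ± 0.14, edgeR adjusted p = 0.0130). Rpl10a, the protein of the mobile L1 stalk, was at 1621, 1321 and 1672 CPM in RAG2KO replicates and within 1064 to 1078 CPM in C57Bl6 replicates (0.53 ± 0.12, edgeR adjusted p = 0.0139).

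Some members did not follow. Rps2 was at 3316, 2512 and 3008 CPM in RAG2KO replicates, against 3787, 5007 and 3553 CPM in C57Bl6 replicates. All its RAG2KO libraries were below all C57Bl6 libraries, but the log2 fold change of -0.48 ± 0.16 did not pass (edgeR adjusted p = 0.0556). Rpl26 and Rplp2 were at -0.32 ± 0.24 and -0.30 ± 0.17. Rpl5 and Rpl11, which carry the 5S RNA into the large subunit and together can inhibit Mdm2, were at 0.33 ± 0.13 (edgeR adjusted p = 0.0944) and 0.51 ± 0.17 (edgeR adjusted p = 0.0554), and Rps6, the substrate of the S6 kinases, at 0.31 ± 0.14 (edgeR adjusted p = 0.124). With the summed counts of the members themselves as the library size, an alternative chosen after the data were seen, the split was 4 higher (Rpl22, Rpl36a, Rpl39 and Rps23) and 6 lower, among them Rpl26, Rpl7a, Rpl8, Rplp2 and Rps2.

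The count in this comparison depended on single libraries. It was 35 without C57Bl6 replicate 2, 6 without C57Bl6 replicate 1, 5 without C57Bl6 replicate 3, 7 without RAG2KO replicate 1, 6 without RAG2KO replicate 3 and 8 without naive replicate 2, while the median stayed between 0.29 and 0.48. Upper-quartile scaling, which moved the median of all genes by 0.10 on the log2 scale, gave 33 calls, and scaling by library totals gave 9 higher and 1 lower. With the log2 Rn45s share as a covariate 0 members and 2 of all genes were called, against 3295 genes without it. The median of the members was 0.32 in that fit. The RAG2KO libraries hold the highest Rn45s shares, so that the covariate and this group are closely tied and their parts cannot be fully separated. The fit takes the covariate's effect from differences within groups. With it 0 members were also called in C57Bl6 versus naive, where the Rn45s shares of the groups overlap. The cause of the lost calls was not tested.

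**Figure D4:**
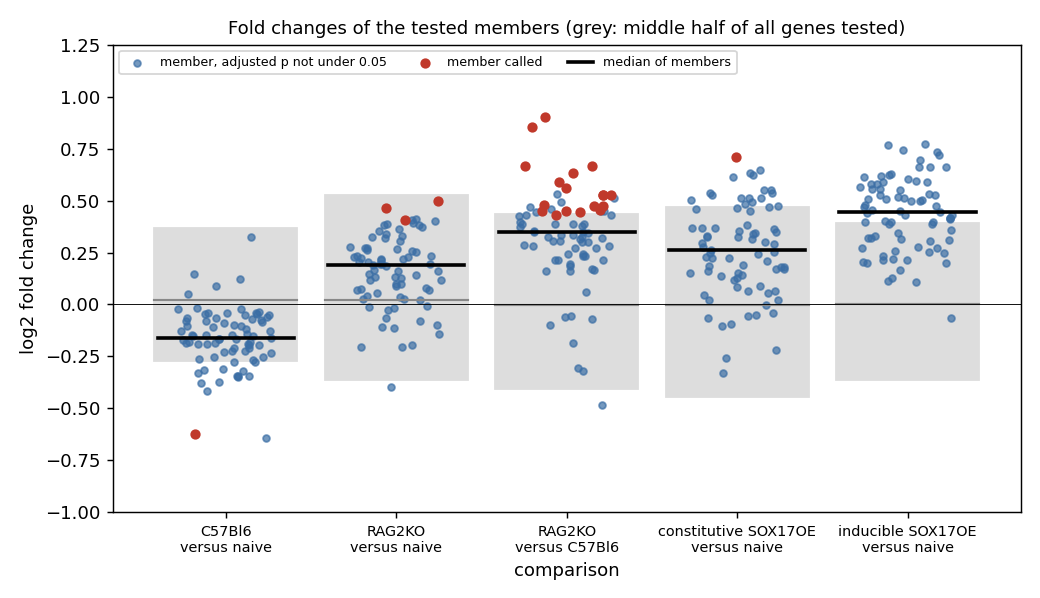
Log2 fold change of the 77 tested members in 5 comparisons (points, red where the edgeR adjusted p is under 0.05), their median (black line) and, in grey, the range between the quartiles of all 13720 genes tested with its median. The members' median lies below 0 in C57Bl6 versus naive (-0.16) and above 0 in the other comparisons (0.19 to 0.45), with most called members in RAG2KO versus C57Bl6.

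In the comparisons of the SOX17OE lines and of RAG2KO organoids, though not in C57Bl6 versus naive, shorter members had the higher log2 fold changes, a pattern noticed after the values were seen. Spearman's rho between the log2 fold change and the coding length over the 77 members was -0.42 in the SOX17OE lines versus naive, -0.59 in RAG2KO versus naive, -0.44 in RAG2KO versus C57Bl6 and -0.13 in C57Bl6 versus naive. Over 12879 other genes tested it was -0.23, -0.23, -0.28 and 0.04 in the same comparisons, so that shorter genes were higher at large as well, apart from C57Bl6 versus naive. Without Rps27, Rpl34 and Rpl30 the values for the members were -0.48, -0.65, -0.47 and -0.17. The same coefficient with the GC content of the coding sequence was -0.41, -0.21, -0.34 and 0.30. These values are descriptions across genes, which are not independent replicates.

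Summed levels show the same thing by library. The 37 members under 453 coding bases, divided by the 40 members of that length or more, gave ratios of 0.576 in the constitutive and 0.573 in the inducible line. The ratio was 0.585, 0.598 and 0.586 in RAG2KO replicates, 0.502, 0.539 and 0.512 in C57Bl6 replicates and 0.517, 0.511 and 0.505 in naive replicates. The RAG2KO libraries and both lines lay above all C57Bl6 and naive libraries (RAG2KO versus naive 0.590 ± 0.00720 and 0.511 ± 0.00600, SD, n = 3 each, exact permutation p = 0.1, the smallest that 3 against 3 allows; RAG2KO versus C57Bl6 likewise p = 0.1 by the exact permutation test). Of the 18 members called in RAG2KO versus C57Bl6, 14 were among the shorter and 4 among the longer members; for the SOX17OE lines the counts were 8 and 3. The part of transcript length in the calls was not tested.

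**Figure D5:**
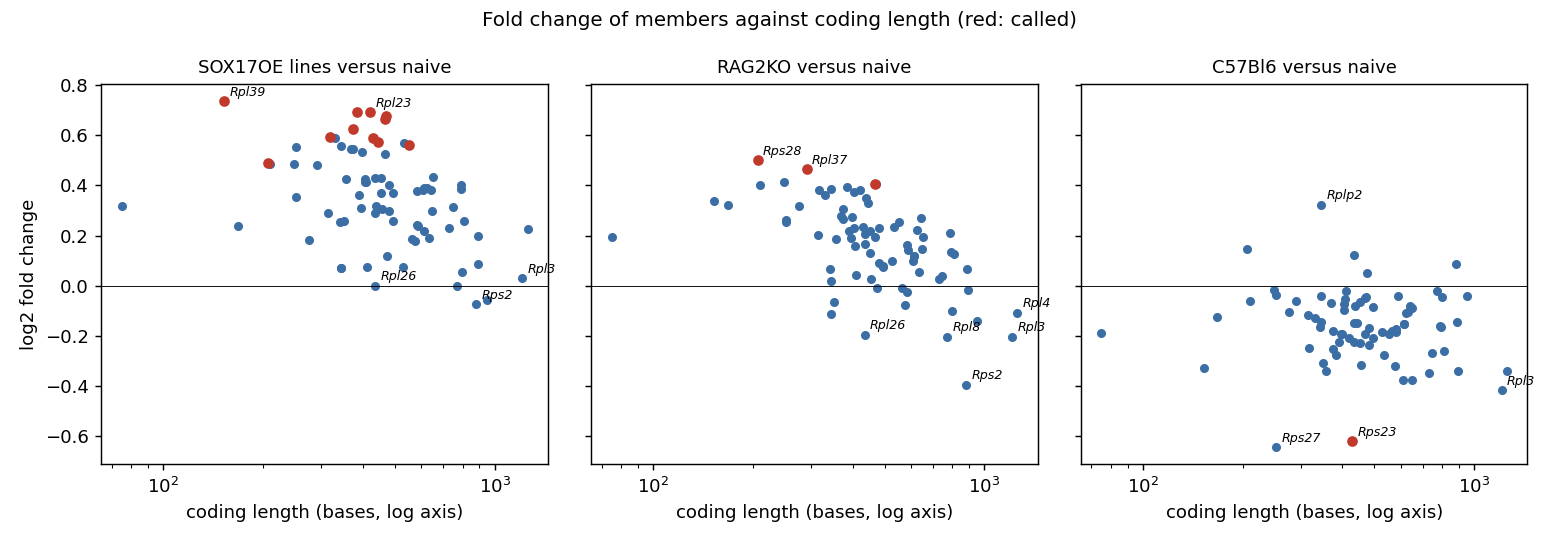
Log2 fold change of each tested member against its coding length in bases (log axis) for the SOX17OE lines, RAG2KO and C57Bl6 organoids, each versus naive (red: edgeR adjusted p under 0.05). Points slope down with length in the first and second panel (rho -0.42 and -0.59), with Rps2 and Rpl3 among the lowest long members, and hardly in the third (-0.13). In the third panel Rpl3 is the lowest long member and Rps2, at 0.09, the highest.

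The start regions of members that rose and of members that did not are shown for comparison, since most messenger RNAs of ribosomal proteins begin with a pyrimidine run. Of the 80 members 59 matched a RefSeq start region (GRCm38.p6; the count table uses mm9, so no position was carried over). In the window from 60 bases before to 20 after the listed start, 34 members (57.6%) held at least 8 C or T bases in a row on the sense strand, against 31.1% of all 27025 genes in the table; window and minimum were chosen after the members' sequences had been seen. The first listed start of a gene was used, which need not be the one used in these organoids. The following windows run 5′ to 3′ on the sense strand, and capitals mark the longest run of C or T in each, the first where several tie. Rps28 (chr17:33824543-33824622, minus strand), Rpl39 (chrX:37085203-37085282, minus), Rpl23 (chr11:97782420-97782499, minus) and Rps23 (chr13:90923062-90923141, plus) were called in at least 1 comparison.
Rps28: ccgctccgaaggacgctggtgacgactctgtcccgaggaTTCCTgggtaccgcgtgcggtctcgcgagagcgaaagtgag
Rpl39: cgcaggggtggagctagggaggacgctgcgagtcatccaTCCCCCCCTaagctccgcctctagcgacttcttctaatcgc
Rpl23: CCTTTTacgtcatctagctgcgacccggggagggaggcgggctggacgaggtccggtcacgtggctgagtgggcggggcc
Rps23: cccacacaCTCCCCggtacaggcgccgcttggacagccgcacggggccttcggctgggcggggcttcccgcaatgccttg

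Rps2 (chr17:24720003-24720082, plus strand), Rplp0 (chr5:115559407-115559486, plus), Rplp2 (chr7:141447591-141447670, plus) and Rpl26 (chr11:68901506-68901585, plus) were among the members least tied to the rest and were called in no comparison by the edgeR test.
Rps2: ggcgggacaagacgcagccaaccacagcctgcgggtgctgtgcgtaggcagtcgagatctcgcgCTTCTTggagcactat
Rplp0: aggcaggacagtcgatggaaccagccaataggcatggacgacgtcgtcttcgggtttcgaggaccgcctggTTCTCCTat
Rplp2: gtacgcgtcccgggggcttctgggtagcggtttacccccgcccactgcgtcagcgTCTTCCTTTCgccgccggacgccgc
Rpl26: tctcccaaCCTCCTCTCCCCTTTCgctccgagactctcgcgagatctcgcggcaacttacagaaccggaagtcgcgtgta
The longest runs were 5, 9, 6 and 6 bases in Rps28, Rpl39, Rpl23 and Rps23, and 6, 7, 10 and 16 bases in Rps2, Rplp0, Rplp2 and Rpl26. Run length in these windows did not order the 8 members by their change. Relative to the listed start, the runs began at -21 in Rps28 and Rpl39, -60 in Rpl23 and -52 in Rps23 and Rpl26. They began at -5 in Rplp2, 5 in Rps2 and 12 in Rplp0. Only the Rplp2 run crosses the listed start, so the marked runs need not be TOP tracts.

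Ribosomal protein genes with names outside the pattern were measured too. Fau, whose product is a ubiquitin-like protein fused to Rps30, was at 1401 ± 117 CPM in RAG2KO and 968 ± 165 CPM in C57Bl6 organoids (SD, n = 3 each) and was called higher (log2 fold change 0.53 ± 0.14, edgeR adjusted p = 0.0260). Rpsa, the laminin receptor and small-subunit protein, was at 0.04 ± 0.17 in the same comparison. Rpl22l1, the relative of Rpl22, fell in C57Bl6 organoids to 117 ± 57.2 CPM, against 268 ± 63.6 CPM in naive organoids (-1.20 ± 0.35, edgeR adjusted p = 0.0467). Of 76 mitochondrial ribosomal protein genes, 10 were higher and 0 lower in RAG2KO than in C57Bl6 organoids (median 0.15), against 11.8% and 12.2% of all genes. In the SOX17OE lines 5 were higher and 0 lower than in naive organoids (median 0.20), against 6.77% and 5.92% of all genes, so that the counts of higher genes were near the background in both comparisons.

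Of 66 ribosome biogenesis genes, 0 were higher and 12 lower in RAG2KO than in naive organoids (median -0.23), against 16% and 13.3% of all genes. In RAG2KO compared with C57Bl6 organoids 1 was higher and 17 lower (median -0.32), against 11.8% and 12.2% of all genes. The difference between these genes and the ribosomal protein genes was not tested. Bysl, a small-subunit assembly factor, was lower in both comparisons (log2 fold change -0.67 ± 0.15 and -1.04 ± 0.15, edgeR adjusted p = 0.00965 and 0.00306). Ncl, the nucleolar protein nucleolin, was at 995 ± 286 CPM in RAG2KO organoids, against 1626 ± 198 CPM in C57Bl6 and 1603 ± 256 CPM in naive organoids, and fell against both (-0.71 ± 0.21 and -0.69 ± 0.21, edgeR adjusted p = 0.0326 and 0.0311). In the SOX17OE lines 0 of the 66 were higher and 1 lower than in naive organoids (median -0.08), against 6.77% and 5.92% of all genes. In C57Bl6 organoids 0 were higher and 1 lower than in naive organoids (median 0.08), against 9.5% and 5.84% of all genes.

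Of 20 genes for ribosomal RNA transcription, 2 were higher and 3 lower in RAG2KO than in naive organoids (median 0.07, 12 above 0; 16% and 13.3% of all genes). The counts were the same against C57Bl6 organoids (median 0.12, 11 above 0; 11.8% and 12.2% of all genes). The lower genes included Polr1a, Polr1b and Rrn3. Polr1a, the largest subunit, was at 38.1 ± 5.33 CPM in RAG2KO, against 72.7 ± 9.11 CPM in C57Bl6 and 58.2 ± 4.75 CPM in naive organoids (-0.93 ± 0.15 and -0.61 ± 0.15, edgeR adjusted p = 0.00373 and 0.0134). Polr1b, the second-largest subunit, was lower by edgeR as well (-1.16 ± 0.19 and -0.68 ± 0.18, adjusted p = 0.00378 and 0.0216), as was Rrn3, the factor that brings the polymerase to the promoter (-0.70 ± 0.15 and -0.52 ± 0.15, adjusted p = 0.00938 and 0.0240). Ubtf, which binds the ribosomal DNA promoter, was at -0.14 ± 0.14 and 0.01 ± 0.14. Of 24 other RNAs without a poly(A) tail tested, 24 had a log2 fold change above 0 in RAG2KO versus C57Bl6 (median 0.58). By edgeR 4 were called higher and 0 lower, against 11.8% and 12.2% of all genes. In RAG2KO versus naive 20 were above 0 (median 0.48, with a median SE of 0.48). There edgeR called 0, against 29.2% of all genes, with 3 higher and 0 lower at an unadjusted p under 0.05. In the SOX17OE lines versus naive 8 of the 24 were above 0 (median -0.26). In the constitutive line alone 10 were above 0 (median -0.06), though its Rn45s share was 6.39% against a naive mean of 3.50%. The part of this in the members' values was not tested.

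Of the regulators of ribosomal protein genes, Myc and Larp1 were lower in the SOX17OE lines and in RAG2KO organoids. Myc was at 98.1 and 107 CPM in the constitutive and inducible line, 76.6 ± 8.72 CPM in RAG2KO, 145 ± 7.08 CPM in C57Bl6 and 180 ± 36.0 CPM in naive organoids. Myc fell in the lines (log2 fold change -0.81 ± 0.18) and in RAG2KO organoids (-1.23 ± 0.16), both against naive (edgeR adjusted p = 0.0193 and 7.73e-04), and in RAG2KO against C57Bl6 organoids (-0.92 ± 0.15, edgeR adjusted p = 0.00454). Larp1, the RNA-binding protein that holds TOP messenger RNAs untranslated, was at 109 and 131 CPM in the constitutive and inducible line, 110 ± 8.02 CPM in RAG2KO, 221 ± 35.1 CPM in C57Bl6 and 184 ± 8.75 CPM in naive organoids. Larp1 fell in the lines (-0.62 ± 0.15) and in RAG2KO organoids (-0.75 ± 0.14), both against naive (edgeR adjusted p = 0.0308 and 0.00407), and in RAG2KO against C57Bl6 organoids (-1.01 ± 0.14, edgeR adjusted p = 0.00261). Of the 20 genes of this list 5 were lower and 1 higher in the lines (5.92% and 6.77% of all genes), and 9 lower and 2 higher in RAG2KO organoids (13.3% and 16%), both against naive.

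Of 21 other TOP messenger RNAs tested, 6 were higher and 1 lower in RAG2KO than in C57Bl6 organoids (median 0.05; 11.8% and 12.2% of all genes). In RAG2KO compared with naive organoids 3 were higher and 3 lower (median 0.04; 16% and 13.3% of all genes), and in the SOX17OE lines compared with naive organoids 2 were higher and 0 lower (median 0.07; 6.77% and 5.92% of all genes), which is near the background. Tpt1, a short and abundant TOP messenger RNA, rose in the lines (0.62 ± 0.13, edgeR adjusted p = 0.0168) and in RAG2KO organoids against naive (0.58 ± 0.12, edgeR adjusted p = 0.00622). Eef2, the elongation factor that moves the ribosome along the messenger RNA, was at 2219 ± 491 CPM in RAG2KO, against 3174 ± 239 CPM in C57Bl6 and 3723 ± 373 CPM in naive organoids, and fell against both (-0.52 ± 0.16 and -0.75 ± 0.16, edgeR adjusted p = 0.0441 and 0.00902). Eef1a1, which brings charged tRNA to the ribosome, was at -0.03 ± 0.12 and -0.25 ± 0.12 in the same comparisons and did not pass. Of 35 translation factors 2 were higher and 7 lower in RAG2KO than in C57Bl6 organoids (11.8% and 12.2% of all genes), and 1 higher and 9 lower in RAG2KO than in naive organoids (16% and 13.3%).

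The 10 genes of the 5S particle and p53 axis include the members Rpl5 and Rpl11, so this list is not separate from the ribosomal protein genes. Of the 10, 1 was higher and 3 lower in RAG2KO than in naive organoids, where 29.2% of all genes were called in either direction. Between RAG2KO and C57Bl6 organoids 0 differed by edgeR, with 2 higher and 2 lower at an unadjusted p under 0.05. The 2 higher were Rpl5 and Rpl11, already counted among the members above. Mdm2, the p53 ubiquitin ligase that free Rpl5 and Rpl11 can inhibit, was at 45.2 ± 5.40 CPM in RAG2KO and 60.5 ± 5.57 CPM in naive organoids (-0.42 ± 0.14, edgeR adjusted p = 0.0481).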

How the data were processed

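Poly(A)-selected, directional RNA libraries (NEBNext Ultra II, per the labels) of 11 organoid samples were analysed. The authors deposited expected counts per gene; per the submitters' processing notes they used Bowtie, RSEM and mm9, with no version named. RSEM divides reads that match several copies, which bears on ribosomal protein genes with processed copies.

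Expected counts were rounded. Genes were filtered with filterByExpr (13720 of 23224 kept), scaled by TMM and fitted with edgeR 4.0.16 in R 4.3.3 (robust quasi-likelihood, 11 libraries in 5 groups, degrees of freedom 6 residual and 4.16 prior at the median, biological coefficient of variation 25.3%). A SOX17OE line with 1 library takes its spread from the replicated groups. All tests are two-sided. The p-values were adjusted by Benjamini-Hochberg over all genes tested, and a gene was called at an adjusted p under 0.05. Each SE follows from the fold change and its F statistic. On simulated data for RAG2KO versus naive with 13173 genes tested, 31 of 100 genes changed by log2 1 and 93 of 100 changed by log2 2 were recovered, with 9 false calls. In the measured data the members called in that comparison had log2 fold changes of 0.41 to 0.50. The median SE over all 77 members was 0.149. Recovery of changes of that size was not tested.

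Shares were compared by exact permutation and relations by 100000 permutations. Wilson 95% intervals of the members' shares cover counting error only and are far narrower than the spread between libraries. Coding length and GC content came from GENCODE M21 by gene name. Alternatives used other scalings, filters, DESeq2 1.42.0, limma 3.58.1 voom, an Rn45s covariate, a replicate block and left-out libraries.

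Members, gene lists, tests and the rule for named genes were chosen with earlier results of these data known; the list of mitochondrial ribosomal proteins was added later. Named were listed members of known role, in each comparison the 5 called members of smallest adjusted p in each direction and the 2 highest and 2 lowest, all called members by name, and from each related list fixed genes and the 3 of smallest adjusted p. Some single genes are not reported here.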

Additional observations from a re-analysis of the deposited data

Results flagged for a closer look

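The signed log2 effect of growth in a tumour, each against naive organoids, differed between RAG2KO and C57Bl6 recipients in 18 ribosomal protein genes. This is edgeR's quasi-likelihood test of that difference (adjusted p between 0.00566 and 0.0430). The shared naive libraries cancel in it, so it equals the RAG2KO versus C57Bl6 contrast. In all 18 the effect was above 0 in RAG2KO and below 0 in C57Bl6 organoids, and the larger size was not always in RAG2KO. Rps23, for example, had effects of 0.23 and -0.62, and Rpl37 of 0.46 and -0.06. Of the single effects only those of Rpl23a and Rpl37 in RAG2KO and of Rps23 in C57Bl6 organoids were called. In the small subunit the difference of effects was 0.90 for Rps27, 0.85 for Rps23, 0.53 for Rps20, 0.45 for Rps29, 0.44 for Rps15a and 0.43 for Rps16. In the large subunit it was 0.67 for Rpl22, 0.67 for Rpl39, 0.63 for Rpl36a, 0.59 for Rpl23, 0.56 for Rpl31, 0.53 for Rpl10a and 0.53 for Rpl37. It was 0.48 for Rpl27a, 0.47 for Rpl13a, 0.47 for Rpl32, 0.46 for Rpl23a and 0.45 for Rpl24. The Rps27 row was at 5.12 ± 0.322 CPM in C57Bl6 organoids (SD, n = 3), with the doubt given for it in the report.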

How the results depend on the processing

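Counts of called members moved with the test, while the members' median kept its sign in each comparison under each alternative, except in C57Bl6 versus naive with the members' own summed counts as library size (0.02). For RAG2KO versus C57Bl6 (18 called), upper-quartile scaling gave 33, library totals 10, DESeq2's Wald test 37, limma voom 36, only the groups compared 8, and left-out libraries 5 to 35. For RAG2KO versus naive (3), DESeq2 size factors and upper-quartile scaling gave 5, the Wald test 12, voom 15, only the groups compared 7, and left-out libraries 0 to 7. For C57Bl6 versus naive (1), DESeq2 size factors, upper-quartile scaling, library totals with or without Rn45s, a 1 CPM filter and non-robust edgeR gave 2, the Wald test 5, voom 17, only the groups compared 3, and left-out libraries 0 to 3. For the SOX17OE lines (11), the Wald test gave 26, voom 31, and left-out libraries 0 to 15. For the constitutive line (1), DESeq2 size factors and the 1 CPM filter gave 2, totals without Rn45s 4, no filter 0, the Wald test 7, voom 6, only the groups compared 3, and left-out libraries 0 to 3. For the inducible line (0), the Wald test gave 10 and voom 8, with 800 and 727 genes called in all, against 90 of 13720 by the main test. With the Rn45s covariate 0 members were called in each comparison. In RAG2KO versus C57Bl6 nearly all calls among all genes were lost with it too, as given above. For the other alternatives the counts of all genes called are not given beside those of the members. A shift in members called therefore cannot be told there from a shift in calls at large. With the members' own summed counts as library size, chosen after the data were seen, calls were 10 for RAG2KO versus C57Bl6, 5 for RAG2KO versus naive, 0 for C57Bl6 versus naive and 3 for the SOX17OE lines; the 1 call in the constitutive line was then Rps2, which was lower. The cause of these shifts was not tested. No called member, followed singly, changed sign. Leaving out a SOX17OE line gave no value for the mean of both lines.

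With a replicate block, 9 members were called in RAG2KO versus C57Bl6, 1 in RAG2KO versus naive and 1 in C57Bl6 versus naive. The numbers did not pair the samples: the deviations of same-numbered samples correlated at -0.19 to 0.18. No block could be set for the SOX17OE lines, which carry no number. Depth of 14109100 counts or more left Rps27 as the lowest tested member, at a mean of 8.06 CPM.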
